A study of Mus musculus with 18 samples.

Results

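Cassette exons of 51 nt or less are the subject here: internal exons that some annotated transcripts of a gene hold and others skip between the same flanking splice sites. The GENCODE M21 annotation of the mouse genome GRCm38 holds 16704 cassette exons, of which 2112 are this short. Inclusion is given as percent spliced in (PSI): the TPM of including transcripts as a percentage of the summed TPM of including and skipping ones. TPM is an abundance corrected for transcript length, scaled to the same total in each library. A total of 693 short exons in 595 genes had a mean of at least 5 TPM over 18 libraries and a mean PSI from 2 to 98%. They were tested within the 5437 cassette exons of any length that met the same limits. The exons were thus chosen by their length and by these 2 averages of the measured values, so the level and the range of PSI are not results, while the differences between groups were not used.

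Total RNA was sequenced from bone marrow cells of C57BL/6 mice, sorted into 3 populations from Ptbp1 -/- animals (KO) and from Ptbp1 fl/fl animals (WT), with 3 biological replicates in each of the 6 groups. The groups were KO and WT HSC, KO and WT preMegE, and KO and WT preCFU-E. HSCs are hematopoietic stem cells, gated as Lin-, Sca-1+, c-kit+, CD150+ and CD48-. PreMegE cells are progenitors of megakaryocytes and red cells, and preCFU-E cells are progenitors committed to red cells. Both were gated among Lin-, Sca-1-, c-kit+ and CD150+ cells, preMegE as CD105- and preCFU-E as CD105+. The labels give no age or sex. WT animals carry the floxed allele, and neither the driver of the deletion nor the deleted exon is given in the sources used here.

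Short exons pose a problem to the splicing machinery, because proteins bound at the start and at the end of the exon crowd each other, and many depend on helper sequences in the introns. Exons of a few codons, called microexons, are best known from neurons, where they add a few amino acids to proteins of synapses, the cytoskeleton and vesicle traffic. PTBP1 is an RNA-binding protein that recognises runs of C and U and in many cases blocks the inclusion of nearby exons. In cells other than neurons it keeps many neuronal exons skipped. It also acts on its own family: a 34-nt exon of Ptbp2, the neuronal relative, is skipped where PTBP1 is abundant, which shifts the reading frame and leads to nonsense-mediated decay of the RNA, and Ptbp1 holds a matching exon.

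A selection of the called exons described below, the pair from the PTB family, and both alternative Abi1 exons are shown here, so that their size can be seen. Each line gives the transcript strand 5′ to 3′ from GENCODE M21 transcripts on GRCm38, with the cassette exon in capitals and 20 bases of each neighbouring exon in lower case.
Ptbp1, 34 nt, chr10:79862014-79862047, + strand: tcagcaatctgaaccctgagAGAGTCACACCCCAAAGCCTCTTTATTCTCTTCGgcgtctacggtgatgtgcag
Ptbp2, 34 nt, chr3:119724612-119724645, - strand: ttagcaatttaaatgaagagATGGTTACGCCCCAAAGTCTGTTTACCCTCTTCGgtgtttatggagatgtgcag
Pdlim7, 17 nt, chr13:55507864-55507880, - strand: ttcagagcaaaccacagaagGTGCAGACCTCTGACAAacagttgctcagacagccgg
Ctnnd1, 18 nt, chr2:84612532-84612549, - strand: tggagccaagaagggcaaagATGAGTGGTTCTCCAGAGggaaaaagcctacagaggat
Abi1, 15 nt, chr2:22963214-22963228, - strand: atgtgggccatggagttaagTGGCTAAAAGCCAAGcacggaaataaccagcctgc
Abi1, 15 nt, chr2:22971027-22971041, - strand: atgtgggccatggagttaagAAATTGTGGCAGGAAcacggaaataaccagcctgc
Map4k4, 9 nt, chr1:40008331-40008339, + strand: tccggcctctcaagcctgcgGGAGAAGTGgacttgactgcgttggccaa
Eml4, 33 nt, chr17:83428216-83428248, + strand: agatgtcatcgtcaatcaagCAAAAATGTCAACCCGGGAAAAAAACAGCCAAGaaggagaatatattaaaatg
Psap, 9 nt, chr10:60297537-60297545, + strand: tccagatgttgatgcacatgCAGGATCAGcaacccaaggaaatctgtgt
Atp8a1, 45 nt, chr5:67756650-67756694, - strand: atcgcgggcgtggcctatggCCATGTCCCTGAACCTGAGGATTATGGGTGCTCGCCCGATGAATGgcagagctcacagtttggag
Tmem184b, 21 nt, chr15:79363658-79363678, - strand: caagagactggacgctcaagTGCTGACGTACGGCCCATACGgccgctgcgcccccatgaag
Anxa6, 18 nt, chr11:54987051-54987068, - strand: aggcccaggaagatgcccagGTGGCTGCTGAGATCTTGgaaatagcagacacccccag
Exoc1, 21 nt, chr5:76540747-76540767, + strand: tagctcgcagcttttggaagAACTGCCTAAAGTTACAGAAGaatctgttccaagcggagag
Mars, 24 nt, chr10:127296717-127296740, - strand: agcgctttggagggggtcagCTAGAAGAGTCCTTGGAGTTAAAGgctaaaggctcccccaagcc
Dpf2, 42 nt, chr19:5903731-5903772, - strand: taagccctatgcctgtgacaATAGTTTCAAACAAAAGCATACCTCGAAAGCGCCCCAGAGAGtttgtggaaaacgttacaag
The Ptbp1 and Ptbp2 exons have the same base at 26 of 34 positions. The Abi1 exons lie between the same neighbours, and each adds 15 bases. The Psap and Map4k4 exons add 9 bases each.

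Of the 2112 annotated short exons, 1203 stayed under 5 TPM and 216 reached it with a mean PSI outside 2 to 98%. Just inside 5 TPM were exons of Pepd (5.02 TPM) and Endov (5.03 TPM), and just outside were those of Il15 (4.97 TPM), Zfp58 (4.97 TPM) and Ica1 (4.96 TPM). Just inside 2% were Mrps36 (2.02%), Itsn1 (2.07%) and Stx3 (2.09%), and just outside Anxa2 (1.98%), Stk3 (1.97%) and Ly6e (1.96%). Just inside 98% were Foxm1 (97.9%), Mxd4 (97.9%) and Cenpn (97.8%), and just outside Ewsr1 (98.02%), Zfp207 (98.03%) and Btnl9 (98.1%). The limit of 51 nt fell inside a continuous range of lengths, with 38 tested exons of 51 nt and 20 of 52 nt. The most abundant exons of 51 nt lay in Rsu1, Ubap2l and Mllt10, and those of 52 nt in Cuta, Mbtd1 and Stat5a. In 16 exons the mean PSI lay between 2 and 98% in 1 of the 6 groups, and of these Slc35a3 alone passed the test below in a population.

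The libraries held 15956408 to 29226287 estimated reads each. Ptbp1 averaged 98.1 ± 8.83 CPM (counts scaled to an equal library total) in KO HSC, against 208 ± 12.5 in WT HSC (edgeR adjusted p = 0.000211). It averaged 203 ± 25.4 CPM in KO preMegE, against 693 ± 95.8 in WT preMegE (adjusted p = 1.20e-07), and 306 ± 10.5 CPM in KO preCFU-E, against 1244 ± 117 in WT preCFU-E (adjusted p = 5.51e-09). In these bulk libraries fewer cells of a type and less RNA per cell cannot be told apart, and a PSI is a mean over all cells. The summed CPM of 8 HSC markers ran from 1170 to 1490 in HSC and from 689 to 971 in the progenitors, where it was mostly Kit, a gene all the gates select for. Kit was at 672 to 883 CPM in the progenitors and 458 to 548 CPM in HSC, whereas the transcription factor genes Hlf and Mecom were at no more than 42.04 and 12.5 CPM in the progenitors, against 407 to 618 and 133 to 189.9 CPM in HSC. That of 7 erythroid progenitor markers was 181 to 218 in HSC, 430 to 665 in preMegE and 715 to 953 in preCFU-E. The summed CPM of 5 megakaryocyte markers was 147 to 234 in KO HSC and 138 to 178 in WT HSC, 59.4 to 102 in KO preMegE and 119 to 144 in WT preMegE, and 10.6 to 11.1 in KO preCFU-E and 14 to 17.6 in WT preCFU-E. It was thus lower in KO without overlap in both progenitors, where edgeR called none of the 5 genes (adjusted p of 0.119 or more), and its part in the differences between KO and WT was not tested. Of 4 genes of T and NK cells, Nkg7 alone was high in preMegE, at 203 to 274 CPM, and Cd3e, Cd3g and Klrb1c were at no more than 1.75, 0.327 and 0.383 CPM there. Xist was at 9120 to 10500 CPM in every HSC library and at most 1.17 CPM in the progenitors, and Y-linked Ddx3y at 30.0 to 61.7 CPM in the progenitors and at most 1.72 CPM in HSC. The sex of the mice therefore cannot be told apart from the step between HSC and preMegE, or from a difference of the KO effect between them.

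The 693 exons were spread over the whole range of inclusion in all groups. The median PSI was 40.3% in KO HSC against 37.3% in WT HSC, 30.9% in KO preMegE against 30.2% in WT preMegE, and 30.7% in KO preCFU-E against 29.4% in WT preCFU-E. By group mean, 227 exons in KO HSC and 239 in WT HSC were below 20%, and 159 in KO HSC and 137 in WT HSC above 80%. The median SD between 3 replicates was 10.7 percentage points in KO HSC and 8.14 in WT HSC, 4.56 in KO preMegE and 3.47 in WT preMegE, and 2.89 in KO preCFU-E and 2.94 in WT preCFU-E. Inclusion thus varied most between replicates in HSC. The limma fit used the same spread of an exon for all 6 groups, so its p-values in HSC borrow from the less variable progenitors. In 404 of the exons at least 1 library stood at exactly 0 or 100%.

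Averaged over the 3 populations, short exons with a called difference were mostly included more in KO cells. A change was called at a limma adjusted p below 0.05, over all cassette exons, and at least 10 percentage points. By this mean effect 24 short exons rose in KO and 3 fell, 27 of 693 in all. Among the 24 are both exons of the deleted gene Ptbp1 and a Gnas exon whose change came from HSC alone. Of the 3 that fell, those of Ctsa and Ufl1 were not called without HSC. Among all 5428 cassette exons tested, 1.73% were called, 1.29% higher and 0.442% lower, so the share of short exons called higher (3.46%) was above the background and the share called lower (0.433%) near it. Among longer cassette exons 46 rose and 21 fell of 4735, which is 0.971% and 0.444%. The median change over all short exons was 1.06 points, and 0.2013 points over all cassette exons. The difference in shares between short and longer exons was not tested, because the exons were chosen with these results known.

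**Figure D1:**
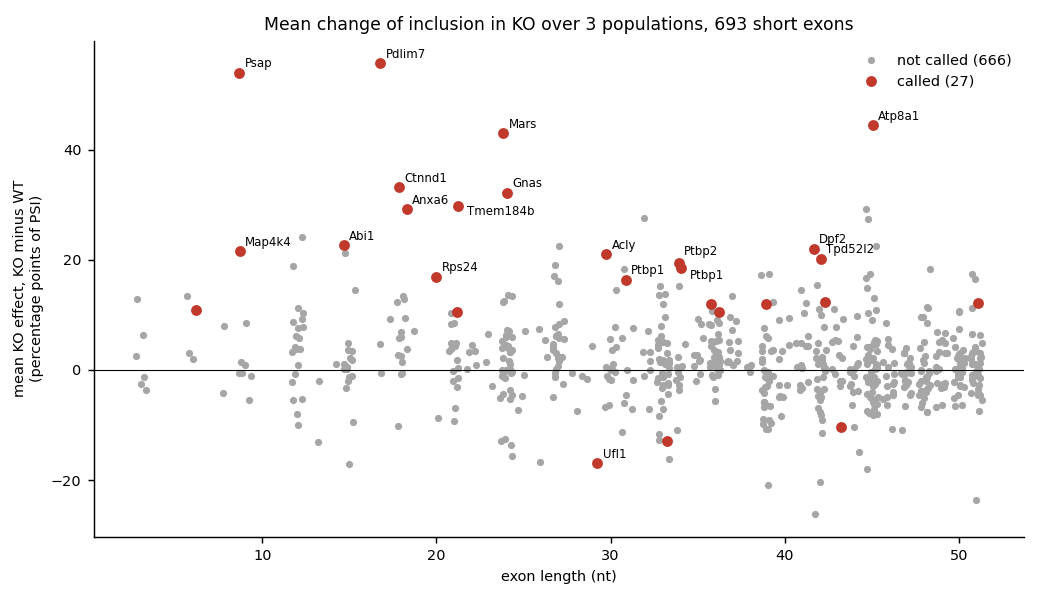
Mean KO effect, KO minus WT, in percentage points of PSI (vertical axis) against exon length in nt (horizontal axis, points shifted sideways by under 0.4 nt) for the 693 short exons. Red points are the 27 exons called in the mean effect and grey points the other 666. The largest called values belong to Pdlim7 (55.7 points), Psap (54.0), Atp8a1 (44.4) and Mars (43.0), and 3 called exons lie below 0.

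By the mean effect, the share of exons that rose in KO was highest in the classes up to 27 nt. Of 63 exons of 3 to 15 nt, 4 rose (6.35%) and none fell, and of 126 exons of 16 to 27 nt, 8 rose (6.35%) and none fell. Of 193 exons of 28 to 39 nt, 7 rose (3.63%) and 2 fell (1.04%), and of 311 exons of 40 to 51 nt, 5 rose (1.61%) and 1 fell (0.322%). Among longer exons the share that rose was 0.676% at 52 to 75 nt, 1.27% at 76 to 100 nt, 1.01% at 101 to 150 nt and 0.890% above that. In WT preMegE against WT HSC the share that rose ran from 3.40 to 5.56% over the same 8 classes, with 4.76% at 3 to 15 nt and 3.72% above 150 nt.

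**Figure D2:**
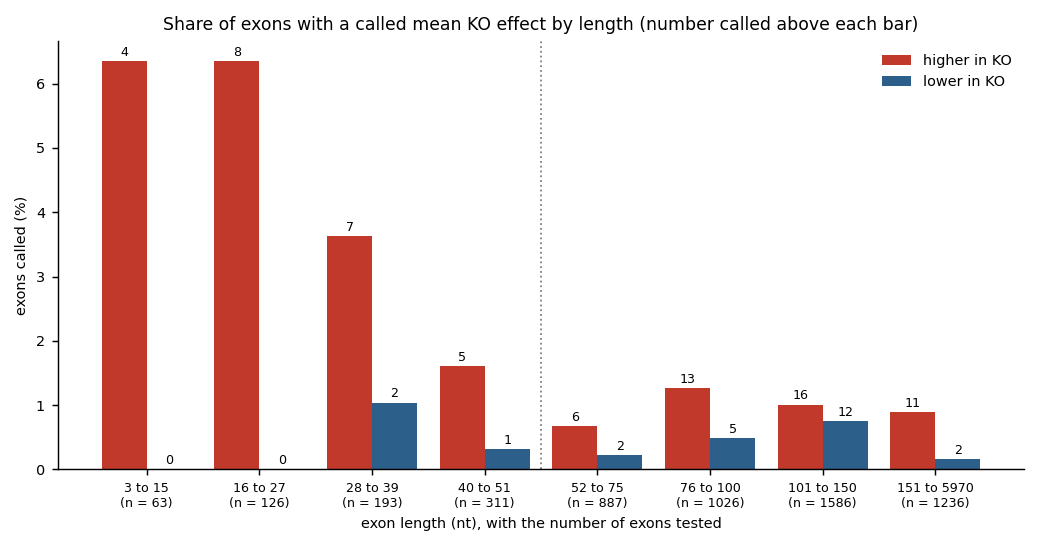
Share of tested cassette exons called in the mean KO effect (vertical axis, percent) by exon length in nt (horizontal axis, with the number of exons tested), red for higher and blue for lower in KO, with the number called above each bar. The dotted line marks the limit of 51 nt. The share higher in KO is 6.35% in both classes up to 27 nt and at most 1.27% in the classes above 51 nt.

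Of the 27 calls, 18 were kept whichever library was left out. The other 9 were lost without some library. The values in brackets are adjusted p without that library. A value below 0.05 marks a change that fell under 10 points. Exoc1 was lost without KO HSC replicate 2 (3.09e-05), where its change fell under 10 points while its p stayed low. Ctsa was lost without WT HSC replicate 1 (0.00122), WT HSC replicate 2 (0.000958), KO preMegE replicate 1 (0.00168), KO preMegE replicate 2 (0.00226), WT preMegE replicate 1 (0.0027), WT preMegE replicate 2 (0.00239) or WT preCFU-E replicate 2 (0.00259), in the same way. Aplp2 was lost without KO HSC replicate 2 (0.0298), KO preMegE replicate 1 (0.0541), WT preMegE replicate 1 (0.0557), WT preMegE replicate 3 (0.058), KO preCFU-E replicate 1 (0.0514), KO preCFU-E replicate 2 (0.0528), WT preCFU-E replicate 1 (0.0554) or WT preCFU-E replicate 2 (0.0543), and Kcnab2 without KO HSC replicate 3 (0.0402), WT HSC replicate 2 (0.0515), KO preMegE replicate 2 (0.0826), KO preMegE replicate 3 (0.0599), WT preMegE replicate 1 (0.0879), WT preMegE replicate 2 (0.0858), KO preCFU-E replicate 1 (0.0886), KO preCFU-E replicate 3 (0.087), WT preCFU-E replicate 2 (0.0864) or WT preCFU-E replicate 3 (0.0819). The remaining 5 were lost in most leave-outs. Mbnl3 was kept only without KO HSC replicate 2 or WT HSC replicate 1 or WT HSC replicate 3 or KO preMegE replicate 2 or WT preCFU-E replicate 2 (otherwise 0.0627 to 0.105), Cad only without KO HSC replicate 3 or WT HSC replicate 2 or KO preMegE replicate 1 (otherwise 0.0505 to 0.0951) and Abi1 only without KO HSC replicate 1 or WT HSC replicate 3 (otherwise 0.0531 to 0.106). Acly was kept only without KO HSC replicate 2 or WT HSC replicate 2 (otherwise 0.0632 to 0.105), and Dock10 only without KO HSC replicate 2 or WT HSC replicate 1 (otherwise 0.0366 to 0.105). With PSI from estimated counts in place of TPM, 27 exons were called as well, 20 of them the same. Lost were the 31-nt exon of Ptbp1 (3.34 points), Dock10 (9.502), Acss2 (9.13), Ctsa (-3.17), Kcnab2 (4.92), Cad (0.941) and Mbnl3 (4.34). The edgeR test of including and skipping counts kept fewer, 12 of the 27. By that test 12 short exons rose and 1 fell (1.73% and 0.144%), against 0.527% and 0.211% of longer ones. With the 12 progenitor libraries alone, fitted without the more variable HSC, 34 short exons rose and 3 fell (4.91% and 0.433%), against 1.35% and 0.696% of longer ones, and 21 of the 27 were among them.

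Both short exons of Ptbp1 and the 34-nt exon of Ptbp2 rose in KO. The 34-nt exon of Ptbp1, at chr10:79862014-79862047, was included at 100% in each library of KO HSC, against 94.7, 86.5 and 89.9% in WT HSC. The PSI was 99.3, 99.9 and 98.5% in KO preMegE, against 76.8, 75.5 and 73.99% in WT preMegE, and 99.3, 100 and 100% in KO preCFU-E, against 77.9, 76.7 and 78.3% in WT preCFU-E. KO and WT libraries did not overlap in any population, and skipping was nearly gone in KO. The mean effect was 18.5 points, or 4.15 ± 0.26 (SE) on the log2 odds scale, with a limma adjusted p of 5.58e-07.

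Both including and skipping Ptbp1 transcripts were lower in KO, and the skipping ones more so. Including transcripts averaged 71.5 ± 6.05 TPM in KO preCFU-E, against 313 ± 28.5 TPM in WT preCFU-E. Skipping transcripts averaged 0.15 ± 0.26 TPM in KO preCFU-E, against 90.2 ± 9.96 TPM in WT preCFU-E. In KO HSC skipping transcripts were listed at 0, against 9.61 ± 4.09 TPM in WT HSC. The 2 annotated skipping transcripts are both of the nonsense-mediated decay type. The 31-nt exon of Ptbp1, at chr10:79856504-79856534, was at 100% in each library of KO HSC, against 85.7, 84.1 and 95.9% in WT HSC. It stood at 100% in each library of KO preMegE, against 86.3, 84.9 and 77.8% in WT preMegE, and at 100% in each library of KO preCFU-E, against 81.6, 76.8 and 79.3% in WT preCFU-E. Its mean effect of 16.4 points (adjusted p = 5.65e-07) shrank to 3.34 points when PSI was taken from estimated counts in place of TPM, below the limit of 10 points. Since the deleted part of Ptbp1 is not given, inclusion in KO Ptbp1 transcripts rests on an annotation of the intact gene.

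The Ptbp2 exon, at chr3:119724612-119724645, gained inclusion in the progenitors. It was at 74.4, 69.7 and 84.99% in KO HSC, against 60.01, 75.98 and 71.8% in WT HSC, where the groups overlapped. It was at 82.8, 97.1 and 93.6% in KO preMegE, against 68.05, 75.3 and 61.6% in WT preMegE, and at 93.5, 100 and 98.03% in KO preCFU-E, against 77.4, 70.2 and 58.4% in WT preCFU-E, without overlap. Over the 3 populations the mean effect was 19.5 points (2.31 ± 0.44 (SE) log2 odds, adjusted p = 0.00892). Including transcripts reached 50.5 ± 4.21 TPM in KO preCFU-E, against 1.59 ± 0.605 TPM in WT preCFU-E, and 32.4 ± 9.18 TPM in KO HSC, against 9.24 ± 3.47 TPM in WT HSC. Skipping transcripts averaged 1.5 ± 1.73 TPM in KO preCFU-E, against 0.69 ± 0.198 TPM in WT preCFU-E. The WT value thus rests on 2.28 TPM in all. The matching 34-nt exon of Ptbp3, the family member known from blood cells, was not called: it averaged 68.3% ± 13.3 in KO HSC, against 54.7% ± 10.8 in WT HSC, 54.3% ± 7.54 in KO preMegE, against 56.8% ± 2.31 in WT preMegE, and 62.5% ± 1.94 in KO preCFU-E, against 59.3% ± 3.39 in WT preCFU-E (SD, n = 3).

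**Figure D3:**
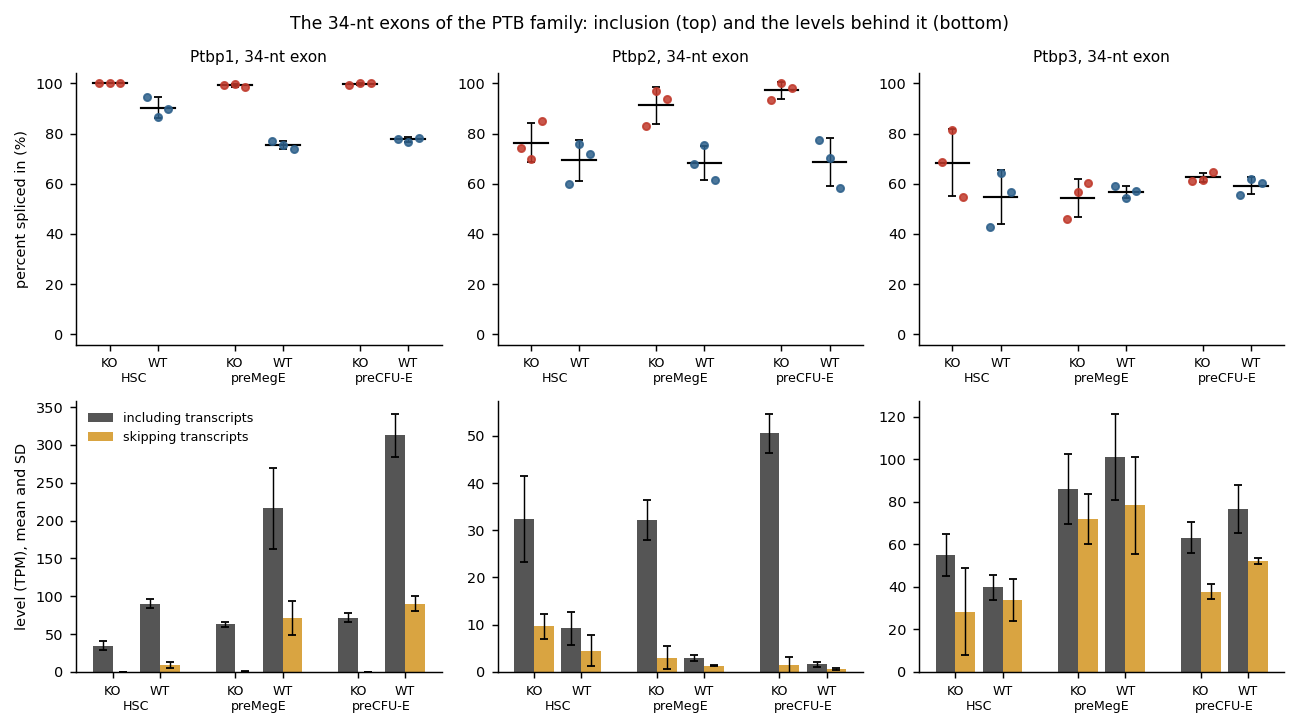
The 34-nt exons of Ptbp1, Ptbp2 and Ptbp3 in KO (left of each pair) and WT of HSC, preMegE and preCFU-E. Upper panels give PSI in percent, red points for KO and blue for WT libraries with the mean and SD in black, and lower panels the mean level in TPM of including (dark) and skipping (yellow) transcripts with SD over 3 libraries. Ptbp1 KO libraries lie at 98.5% or above, Ptbp2 including transcripts are higher in all KO groups, and Ptbp3 overlaps in each population.

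The other exons that rose are set out by what their host genes encode, an order for reading that was not tested. Among genes of the cytoskeleton and cell adhesion, the 17-nt exon of Pdlim7, a PDZ and LIM domain protein bound to actin filaments, had the largest mean effect. It was included at 82.9, 51.4 and 29.8% in KO HSC, against 0% in each library of WT HSC. In preMegE it was at 73.6, 35.4 and 55.4% in KO preMegE, against 0, 0 and 5.38% in WT preMegE, and in preCFU-E at 66.9, 72.6 and 54% in KO preCFU-E, against 11.5, 3.79 and 0% in WT preCFU-E. Every KO library lay above every WT library of its population, and WT inclusion was at or near 0. The mean effect was 55.7 points (6.18 ± 0.61 (SE) log2 odds, adjusted p = 2.92e-05), kept in all 18 leave-outs. This exon, at chr13:55507864-55507880, does not keep the reading frame, and the transcripts behind it totalled 6.5 TPM in KO preCFU-E and 2.09 TPM in WT preCFU-E.

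The 18-nt exon of Ctnnd1, which encodes p120 catenin, a partner of cadherins, was among the most stable calls. Its PSI was 48.7, 27.3 and 47.5% in KO HSC, against 8.86, 9.92 and 3.24% in WT HSC. It was 18.9, 20.2 and 19.9% in KO preMegE, against 7.86, 2.74 and 8.11% in WT preMegE, and 60.7, 54.3 and 55.95% in KO preCFU-E, against 4.22, 4.98 and 4.74% in WT preCFU-E. The groups did not overlap in any population, and the KO value was lowest in preMegE. On average KO exceeded WT by 33.2 points (3.14 ± 0.30 (SE) log2 odds, adjusted p = 2.92e-05), and it was called by edgeR's test of including and skipping counts as well (33.8 points, adjusted p = 3.36e-05).

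The 9-nt exon of Map4k4, a STE20-family kinase that acts on the cytoskeleton, was included at 34.9, 13.7 and 44.2% in KO HSC, against 14.3, 13.03 and 8.63% in WT HSC, with overlap. It was at 44.7, 39.4 and 36.9% in KO preMegE, against 14.6, 16.3 and 24.98% in WT preMegE, and at 51.7, 53.8 and 38.8% in KO preCFU-E, against 27.8, 19.6 and 24.9% in WT preCFU-E, both without overlap. The mean effect of 21.6 points (1.54 ± 0.32 (SE) log2 odds, adjusted p = 0.0167) was not called by edgeR on counts (12.6 points, adjusted p = 0.237).

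The 15-nt exon of Abi1 at chr2:22963214-22963228 also rose. Abi1 is a subunit of the WAVE complex that starts actin branching. It averaged 80.95% ± 9.34 in KO HSC, against 68.97% ± 17.7 in WT HSC, 88.6% ± 5.57 in KO preMegE, against 59.4% ± 4.45 in WT preMegE, and 64.7% ± 8.54 in KO preCFU-E, against 37.8% ± 6.73 in WT preCFU-E (SD, n = 3). Its mean effect of 22.7 points had an adjusted p of 0.0465. The 6-nt exon of Dock10, a guanine nucleotide exchange factor, averaged 31.3% ± 0.6198 in KO preCFU-E, against 4.29% ± 0.678 in WT preCFU-E, and 8.02% ± 7.05 in KO HSC, against 8.75% ± 2.63 in WT HSC. The Dock10 mean effect was 10.9 points (adjusted p = 0.0423), and its KO mean in HSC was not higher than the WT mean.

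Among genes of membranes, lysosomes and vesicle traffic, the 9-nt exon of Psap rose. Psap encodes prosaposin, the precursor of lysosomal activators of lipid breakdown. It was included at 79.3, 97.2 and 43.1% in KO HSC, against 24.6, 12.6 and 0% in WT HSC. Inclusion was 56.5, 50.9 and 53.9% in KO preMegE, against 0, 11.8 and 1.003% in WT preMegE, and 48.5, 60.2 and 53.1% in KO preCFU-E, against 1.65, 5.397 and 0% in WT preCFU-E. WT libraries stayed at or below 24.6% and KO libraries at or above 43.1%, without overlap in any population. The mean effect was 53.96 points (5.48 ± 0.80 (SE) log2 odds, adjusted p = 0.0011).

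The 45-nt exon of Atp8a1, a flippase that moves phosphatidylserine across membranes, was at 66.8, 73.1 and 77.8% in KO HSC, against 54.97, 22.7 and 7.57% in WT HSC. It was at 58.4, 68.1 and 69.5% in KO preMegE, against 26.4, 30.5 and 24.1% in WT preMegE, and at 77.6, 80.3 and 74.4% in KO preCFU-E, against 27.6, 25.4 and 26.8% in WT preCFU-E. Its WT inclusion lay between 24.1 and 30.5% in both progenitors, and the WT HSC libraries were widely spread. Over the populations the mean effect was 44.4 points (2.83 ± 0.39 (SE) log2 odds, adjusted p = 0.000763), and the groups did not overlap in any population.

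The 21-nt exon of Tmem184b, a membrane protein, was nearly absent from WT libraries. It was at 58.01, 75.8 and 42.6% in KO HSC, against 0, 0 and 2.43% in WT HSC. It was at 29.04, 12.7 and 17.3% in KO preMegE, against 0, 2.63 and 0% in WT preMegE, and at 11.2, 21.5 and 4.87% in KO preCFU-E, against 0% in each library of WT preCFU-E. KO inclusion was highest in HSC, and the mean effect was 29.8 points (4.78 ± 0.44 (SE) log2 odds, adjusted p = 2.53e-05). Without HSC the mean over the progenitors was 15.7 points, adjusted p = 0.00175.

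The 18-nt exon of Anxa6, a calcium-dependent membrane-binding annexin, was in most transcripts of the WT progenitors. It was at 100, 96.04 and 95.7% in KO HSC, against 80.4, 43.7 and 34.7% in WT HSC. It was at 89.2, 80.4 and 70.6% in KO preMegE, against 57.95, 57.8 and 64.3% in WT preMegE, and at 80.4, 77.9 and 87.7% in KO preCFU-E, against 53.5, 59.04 and 63.9% in WT preCFU-E. No libraries overlapped, although WT HSC ranged widely. On average KO exceeded WT by 29.2 points (2.65 ± 0.45 (SE) log2 odds, adjusted p = 0.00397), and edgeR on counts did not call it (29.1 points, adjusted p = 0.0537).

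Smaller rises were called in 3 further genes of traffic or membranes. The 21-nt exon of Exoc1, a subunit of the exocyst that tethers vesicles, was absent from 8 of 9 WT libraries and had 0.873% in the other. KO inclusion was low but present in all libraries, at 5.46, 18 and 1.004% in HSC, 6.23, 6.19 and 11.2% in preMegE and 18.7, 16.7 and 12.8% in preCFU-E, and the mean effect was 10.6 points (adjusted p = 0.000157). The 36-nt exon of Aplp2, a relative of the amyloid precursor protein, had 10.5 points (adjusted p = 0.0229). The 42-nt exon of Tpd52l2, a member of the tumor protein D52 family, averaged 64.4% ± 8.43 in KO HSC, against 39.3% ± 3.31 in WT HSC, 66.9% ± 2.54 in KO preMegE, against 46.9% ± 3.93 in WT preMegE, and 65.2% ± 3.27 in KO preCFU-E, against 49.7% ± 3.08 in WT preCFU-E, with 20.2 points (adjusted p = 0.00863).

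**Figure D4:**
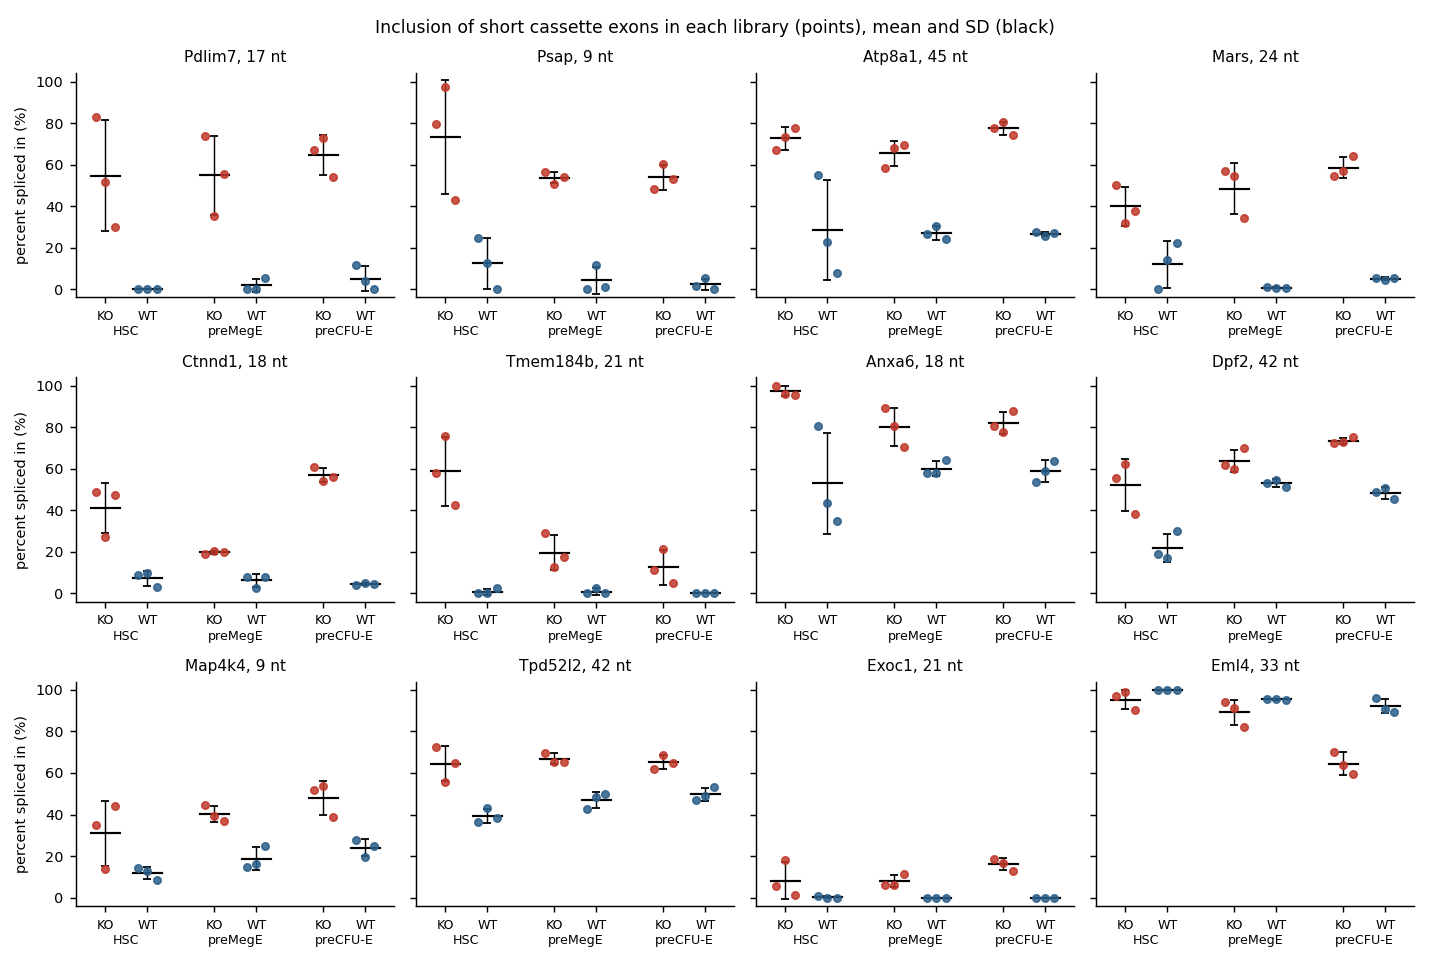
PSI in percent of 12 short exons in each library, red for KO (left of each pair) and blue for WT, in HSC, preMegE and preCFU-E, with the mean and SD over 3 libraries in black. Pdlim7, Psap, Ctnnd1, Tmem184b and Exoc1 lie near 0 in most WT libraries and above it in KO, Eml4 is the exon that is lower in KO, and HSC libraries are the most spread out.

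Among genes of translation, metabolism and chromatin, the 24-nt exon of Mars, the methionyl-tRNA synthetase, rose most. It was included at 50.2, 31.7 and 37.8% in KO HSC, against 0, 13.9 and 22.2% in WT HSC. It was at 56.7, 54.5 and 34.2% in KO preMegE, against 0.822, 0.756 and 0.475% in WT preMegE, and at 54.4, 56.8 and 64.1% in KO preCFU-E, against 5.45, 4.26 and 5.43% in WT preCFU-E. In both progenitors every WT library was at or below 5.45%, and the KO libraries at or above 34.2%. The mean effect was 43.01 points (4.45 ± 0.53 (SE) log2 odds, adjusted p = 0.000194), and 25.8 points from estimated counts.

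The 42-nt exon of Dpf2, a subunit of BAF chromatin remodelling complexes, was at 55.6, 62.4 and 38.2% in KO HSC, against 18.8, 16.9 and 29.8% in WT HSC. It was at 61.8, 60 and 69.9% in KO preMegE, against 53.4, 54.8 and 51.05% in WT preMegE, and at 72.5, 72.8 and 75.2% in KO preCFU-E, against 48.9, 50.9 and 45.5% in WT preCFU-E. All 3 populations were without overlap, with the smallest gap in preMegE. Its mean over populations was 22.04 points (1.37 ± 0.26 (SE) log2 odds, adjusted p = 0.00812).

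The 20-nt exon of Rps24, a protein of the small ribosomal subunit, lies in the 3′ UTR at chr14:24495430-24495449 and changed both with KO and with cell type. It was at 98.8, 97.8 and 97.7% in KO HSC, against 97.6, 96.95 and 96.96% in WT HSC. It was at 86.2, 89.5 and 90.6% in KO preMegE, against 58.1, 51.7 and 61.2% in WT preMegE, and at 27.9, 25.7 and 22.7% in KO preCFU-E, against 6.75, 6.7 and 8.38% in WT preCFU-E. Its mean effect was 16.9 points (adjusted p = 0.000586), on totals of at least 116 TPM per group.

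The other exons that rose in the mean effect are given with less detail. The 30-nt exon of Acly, which makes acetyl-CoA from citrate, had 21.04 points (adjusted p = 0.0462), and was at 69.5, 31.8 and 61.4% in KO HSC, against 4.54, 20.4 and 2.703% in WT HSC. Without HSC the Acly difference was not called (9.04 points, adjusted p = 0.284). The 39-nt exon of Acss2, which makes acetyl-CoA from acetate, had 11.9 points (adjusted p = 0.00641). The 51-nt exon of Cad, the enzyme of the first steps of pyrimidine synthesis, had 12.1 points (adjusted p = 0.0423), but 0.941 points from estimated counts. The 42-nt exon of Kcnab2, a potassium channel subunit, had 12.3 points (adjusted p = 0.0373), and the 36-nt exon of Mbnl3, a splicing regulator, 12.1 points (adjusted p = 0.043). The 24-nt exon of a noncoding Gnas transcript had 32.2 points (adjusted p = 0.000673), which came from HSC alone, where its PSI was defined in 2 KO libraries (100 and 93.3%) and 1 WT library (0%) and the totals were 1.97 TPM in KO and 0.139 TPM in WT. Without HSC the Gnas change was -0.0401 points, adjusted p = 1.

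Inclusion fell in KO for 3 exons by the mean effect. The 33-nt exon of Eml4, a microtubule-associated protein, was at 97.01, 99 and 90.2% in KO HSC, against 99.8, 100 and 100% in WT HSC. It was at 94.1, 91.2 and 82.3% in KO preMegE, against 95.7, 95.6 and 94.9% in WT preMegE, and at 70.3, 63.6 and 59.3% in KO preCFU-E, against 96.1, 90.9 and 89.5% in WT preCFU-E. The groups did not overlap in any population, and the largest gap was in preCFU-E, on 3.197 TPM in KO and 3.81 TPM in WT. The mean effect was -12.8 points (-1.93 ± 0.36 (SE) log2 odds, adjusted p = 0.00799). The 29-nt exon of Ufl1, the ligase of the ubiquitin-like modifier UFM1, averaged 70.1% ± 13.2 in KO HSC, against 98.5% ± 2.54 in WT HSC, and its mean effect was -16.98 points (adjusted p = 0.0137). Without HSC the Ufl1 change was not called (-11.2 points, adjusted p = 0.283). The 43-nt exon of Ctsa, a lysosomal carboxypeptidase, lies in the 5′ UTR and had -10.3 points (adjusted p = 0.000673). It was at 0% in each library of KO HSC, against 37.5, 41.7 and 23.98% in WT HSC, and without HSC the difference was 1.73 points, adjusted p = 0.926.

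Counting exons whose KO and WT libraries did not overlap in each of the 3 populations, 20 in 19 genes were higher in KO, against 0.847% of all cassette exons, and 1, that of Eml4, was lower, against 0.332%. These counts need no model of the spread. Within single populations, 53 short exons were higher and 27 lower without overlap in KO against WT HSC (7.65% and 3.90%), against 5.96% and 4.42% of all cassette exons. In preMegE 79 were higher and 39 lower (11.4% and 5.63%), against 7.82% and 5.83%. In preCFU-E 100 were higher and 54 lower (14.4% and 7.79%), against 8.45% and 7.62%. The share higher in KO was above the background in all 3 populations, and the share lower was close to it. Of the 20 exons, those of Adgrl2, Cd47, Clta, Dmd, Idh3g and Max were not called in the mean effect, named here after their values were seen. Dmd is the dystrophin gene and Max encodes the partner of MYC. The 32-nt Dmd exon averaged 83.8% ± 14.98 in KO HSC, against 49.2% ± 16.3 in WT HSC, 60.99% ± 14.9 in KO preMegE, against 31.2% ± 6.004 in WT preMegE, and 50.6% ± 2.87 in KO preCFU-E, against 32.1% ± 3.84 in WT preCFU-E, with a mean difference of 27.6 points (adjusted p = 0.107). The 27-nt Max exon averaged 48.4% ± 13.5 in KO HSC, against 35.5% ± 2.21 in WT HSC, 62.5% ± 6.37 in KO preMegE, against 45.7% ± 7.22 in WT preMegE, and 65.3% ± 3.54 in KO preCFU-E, against 44.1% ± 2.11 in WT preCFU-E, with 16.98 points (adjusted p = 0.0658).

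Within single populations fewer exons were called, and many calls were lost without 1 library. In KO against WT HSC 16 short exons rose and 3 fell (2.74% of 693), against 2.19% of all cassette exons, 1.25% higher and 0.939% lower. The largest with non-overlapping libraries were those of Gnas (96.7 points), Psap (60.8 points), Tmem184b (57.99 points), Pdlim7 (54.7 points), Acly (45.03 points), Anxa6 (44.3 points), Atp8a1 (44.1 points), Ctsa (-34.4 points), Ctnnd1 (33.9 points) and Clasp1 (32.2 points), with adjusted p from 4.41e-06 to 0.0448. Clasp1 encodes a protein of microtubule ends, and its 24-nt exon was at 35.2, 59.2 and 58.8% in KO HSC, against 28.8, 14.6 and 13.3% in WT HSC. Of the 19 calls 11 were kept without each library. Among the 10 just named, Psap was lost without KO HSC replicate 1 (0.0714), KO HSC replicate 2 (0.122), WT HSC replicate 2 (0.0536) or WT HSC replicate 3 (0.123), Atp8a1 without KO HSC replicate 3 (0.0516), WT HSC replicate 2 (0.058) or WT HSC replicate 3 (0.056), and Clasp1 without KO HSC replicate 2 (0.0819), KO HSC replicate 3 (0.0758), WT HSC replicate 2 (0.0913) or WT HSC replicate 3 (0.104). The other calls in HSC, named after their values were seen, were Dpf2, Cad, Aplp2, Ufl1, the 31-nt exon of Ptbp1 and 4 exons called in no other comparison of KO with WT. Of these 4, Abraxas1, a subunit of a BRCA1 complex, rose by 30.01 points, Desi1, a desumoylating enzyme, by 13.8 and Clta, a clathrin light chain, by 13.1, while Slc35a3, a Golgi sugar-nucleotide transporter, fell by 13.03 points. Slc35a3 met the PSI limits through WT HSC alone, at 13.6% there and 0.550% in KO HSC. Its fall thus uses the value that chose it and is given without weight, although it is among the 3 that fell. Abraxas1 was lost without KO HSC replicate 1 (0.0953), KO HSC replicate 2 (0.0917), WT HSC replicate 1 (0.0638) or WT HSC replicate 2 (0.0787), Desi1 without KO HSC replicate 2 (0.0537) or WT HSC replicate 2 (0.062), Aplp2 without KO HSC replicate 2 (0.0856), WT HSC replicate 1 (0.0777) or WT HSC replicate 3 (0.0952), Dpf2 without KO HSC replicate 1 (0.0594), WT HSC replicate 1 (0.0587) or WT HSC replicate 2 (0.064), and Ptbp1 without WT HSC replicate 1 (0.00232) or WT HSC replicate 2 (0.00205). From estimated counts Ctsa shrank to -12.1 points, Pdlim7 to 33.7 and Ufl1 to -17.9, and calls were lost for Clasp1 (23.2 points, adjusted p = 0.0808), Abraxas1 (7.32), Desi1 (2.68), Cad (2.48), Ptbp1 (2.05) and Slc35a3 (-1.103). Among the 10 named first, edgeR on counts did not call Psap (adjusted p = 0.442), Tmem184b (0.117), Anxa6 (0.0878), Atp8a1 (0.0637) and Clasp1 (0.274). Gnas rests on 1 WT HSC library. Fitted on the 6 HSC libraries alone, 1 short exon was called. That fit takes the spread from HSC alone and has fewer libraries, whereas the p-values above share a spread with the less variable progenitors.

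In KO against WT preMegE 6 exons in 5 genes rose and 1 fell (1.01% of 693), against 0.258% of all cassette exons, 0.221% higher and 0.0368% lower. These were Pdlim7 (53.01 points, adjusted p = 0.0262), Mars (47.8 points, 0.00982), Rps24 (31.7 points, 0.0072), Tmem184b (18.8 points, 0.0388), both Ptbp1 exons (23.8 and 16.97 points) and Araf, which fell (-18.3 points, 2.48e-05). Araf is a RAF-family kinase, and its 45-nt exon in the 5′ UTR was at 0% in each library of KO preMegE, against 18.4, 19.3 and 17.2% in WT preMegE. Both Ptbp1 calls and that of Araf were kept without each library, but from estimated counts Araf shrank to -6.23 points and the 31-nt Ptbp1 exon to 3.47, both under 10 points, and Mars to 27.3. The 34-nt Ptbp1 exon was not called with protein-coding and nonsense-mediated decay transcripts alone (adjusted p = 0.136), nor were Pdlim7 (0.125), Mars (0.11) and Tmem184b (0.258) by edgeR on counts. Pdlim7 was lost without KO preMegE replicate 1 (0.142), KO preMegE replicate 3 (0.0853), WT preMegE replicate 1 (0.144) or WT preMegE replicate 2 (0.113), and Mars without KO preMegE replicate 1 (0.0827) or WT preMegE replicate 3 (0.0567). Rps24 was lost without WT preMegE replicate 2 (0.0548), and Tmem184b without KO preMegE replicate 1 (0.2), KO preMegE replicate 2 (0.0805), KO preMegE replicate 3 (0.124), WT preMegE replicate 1 (0.21) or WT preMegE replicate 3 (0.22).

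In KO against WT preCFU-E 15 exons in 14 genes rose and none fell (2.16% of 693), against 0.699% of all cassette exons, 0.552% higher and 0.147% lower. Lower in KO at an unadjusted limma p below 0.05 were 14 short exons, and edgeR on counts called 0 lower. The largest were Pdlim7 (59.4 points), Mars (53.4 points), Ctnnd1 (52.3 points), Atp8a1 (50.8 points), Dst (31.3 points), Ptbp2 (28.6 points), Dock10 (27 points), Dennd1c (23.04 points) and both Ptbp1 exons (22.1 and 20.8 points), with adjusted p from 9.63e-05 to 0.0452. Dst encodes a linker of cytoskeletal filaments and Dennd1c a DENN domain protein. Their values rest on 0.303 and 0.289 TPM in KO and 0.438 and 0.32 TPM in WT. The 6-nt exon of Dock10 was at 31.9, 30.7 and 31.3% in KO preCFU-E, against 3.78, 5.06 and 4.03% in WT preCFU-E. The 27-nt exon of Diaph1, an actin-nucleating formin, was also called, at 15.6, 28.8 and 19.4% in KO preCFU-E, against 2.76, 3.09 and 0.898% in WT preCFU-E. Calls for Ctnnd1, Dst, Dennd1c, Exoc1 and both Ptbp1 exons were kept without each library. From estimated counts, however, Dst shrank to 2.09 points (adjusted p = 0.129) and the 31-nt Ptbp1 exon to 4.49, and Dst and Dennd1c were not called with PSI fitted in percentage points (0.338 and 0.225). Thoc5 (5.73 points), Rps24 (4.08) and Tmem184b (8.85) also lost their call from estimated counts, as did Atp8a1 (adjusted p = 0.0518). By edgeR on counts Pdlim7 (0.186), Ptbp2 (0.48), Atp8a1 (0.0913), Dst (0.677) and Dennd1c (0.092) were not called. Mars was lost without each of the 6 libraries in turn (adjusted p 0.0912 to 0.129), Atp8a1 likewise (adjusted p 0.125 to 0.198) and Dock10 likewise (adjusted p 0.0669 to 0.105). Pdlim7 was lost without KO preCFU-E replicate 1 (0.0838), KO preCFU-E replicate 2 (0.118), KO preCFU-E replicate 3 (0.0713), WT preCFU-E replicate 2 (0.0682) or WT preCFU-E replicate 3 (0.0952). Ptbp2 was lost without KO preCFU-E replicate 2 (0.118), KO preCFU-E replicate 3 (0.0841), WT preCFU-E replicate 1 (0.0565), WT preCFU-E replicate 2 (0.0726) or WT preCFU-E replicate 3 (0.0945), and Diaph1 without KO preCFU-E replicate 2 (0.0868), KO preCFU-E replicate 3 (0.0576) or WT preCFU-E replicate 3 (0.066). The remaining calls were Rps24 (18.2 points), Exoc1 (16.1 points), Tmem184b (12.5 points) and Thoc5, of the mRNA export complex THO (13.2 points). Rps24 was lost without KO preCFU-E replicate 1 (0.093), KO preCFU-E replicate 2 (0.104), KO preCFU-E replicate 3 (0.0761), WT preCFU-E replicate 1 (0.105) or WT preCFU-E replicate 2 (0.0952), Tmem184b without KO preCFU-E replicate 1 (0.102), KO preCFU-E replicate 2 (0.191), WT preCFU-E replicate 1 (0.115), WT preCFU-E replicate 2 (0.111) or WT preCFU-E replicate 3 (0.0945), and Thoc5 without each of the 6 libraries in turn (adjusted p 0.105 to 0.128). Fitted on the 6 preCFU-E libraries alone, 23 short exons were called.

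Over the 3 populations 30 short exons were called in at least 1. Calls in all 3 populations were made for 3 of them: the exons of Pdlim7 and Tmem184b and the 31-nt exon of Ptbp1. These counts have no share over all cassette exons beside them, so they do not show that short exons stand out. From estimated counts the 31-nt exon of Ptbp1 lost its call in each population. Tmem184b in preMegE and Pdlim7 in preCFU-E kept theirs in 1 of 6 leave-outs each. Whether the KO effect differed between populations was tested directly. The HSC and progenitor libraries differ in sex, so between preMegE and HSC the sex of the mice cannot be told apart from the population. Between preMegE and HSC 3 exons differed, 1 with a higher and 2 with a lower effect in preMegE, against 0.331% of all cassette exons, 0.166% higher and 0.166% lower. Between preCFU-E and preMegE 1 exon differed, with a higher effect in preCFU-E, against 0.0736% of all, 0.0368% higher and 0.0368% lower. These were exons of Ctsa, Gnas and Araf, all with libraries at exactly 0. The value of Gnas rests on 1 WT HSC library and is given without weight, and the Araf and Ctsa differences were not called with PSI fitted in percentage points. For the exons of Pdlim7, Psap, Mars, Ctnnd1 and Tmem184b no difference of the effect was called, with adjusted p of 0.924, 0.98, 0.579, 0.71 and 0.48 between preMegE and HSC, which does not show that the effects are equal.

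A list of known PTB targets was written from general knowledge and with earlier results of these data known. It held 31 genes, of which 9 had 11 short exons here. By the mean effect 4 of 11 rose and none fell, beside 3.46% of all short exons and 1.29% of all cassette exons that rose. These were both Ptbp1 exons, Ptbp2 and the 20-nt exon of Rps24. Ptbp1 is the deleted gene itself, and its 31-nt exon fell under the limit of 10 points from estimated counts. The median change of the 11 was 4.79 points, beside 1.06 over all short exons. As the list was written with results known, neither the count nor the median shows an enrichment. The other 7 were not called. Those of Mef2a, Mef2c and Mef2d, transcription factors with a short alternative exon in muscle and brain, differed by -0.571, 6.28 and 4.56 points. The exon of Arhgef11, also a guanine nucleotide exchange factor, differed by -8.45 points, that of Camk2g, a calmodulin kinase, by 1.11, that of Ptbp3 by 4.79 and the 18-nt exon of Rps24 by 2.54, with adjusted p from 0.574 to 0.982 over the 7.

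A list of 132 genes with microexons known from neurons, written in the same way, had 74 short exons in 56 genes, 47 of them of 27 nt or less. By the mean effect 4 rose, those of Abi1, Ctnnd1, Map4k4 and Ptbp2, and none fell, 4 of 74 beside 3.46% of all short exons and 6.35% of those up to 27 nt. The median change was 1.07 points, the same as over all short exons within 0.01 points, and single changes ran from -17.16 to 33.2 points. Most of these exons were thus not called in KO. Srrm4, a splicing factor that drives neuronal microexons, was at 0 in all 18 libraries, and its relative Srrm3 was at no more than 1.04 CPM in any group mean. Of the regulators of short exons that were measured, Ptbp1 and Ptbp2 alone were called by edgeR in any population. Ptbp2 averaged 115 ± 19.4 CPM in KO HSC against 55.97 ± 10.3 in WT HSC, 82.7 ± 7.42 in KO preMegE against 17.8 ± 2.04 in WT preMegE, and 138 ± 7.902 in KO preCFU-E against 10.04 ± 2.005 in WT preCFU-E. Rbfox2, which binds near many short exons, averaged 21.03 ± 5.27 CPM in KO HSC and 26.5 ± 3.39 in WT HSC, and under 2 CPM in each progenitor group.

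Inclusion of short exons also differed between WT preMegE and WT HSC, in both directions, in the WT libraries that the comparisons of KO use as well. Called were 79 exons, 33 higher and 46 lower in preMegE (11.4% of 693), against 10.1% of all cassette exons, 4.03% higher and 6.04% lower, so the share of short exons was close to the background. The count was 45 without WT preMegE replicate 2 and 42 without WT preMegE replicate 3. Without overlap, 88 exons were higher and 141 lower in WT preMegE (12.7% and 20.3%), against 13.1% and 19.4% of all. The 12-nt exon of Commd6, a COMM domain protein, rose, at 78.5, 65.2 and 73.2% in WT preMegE, against 30.03, 16.7 and 35.2% in WT HSC (adjusted p = 0.00377). The 18-nt exon of Fryl, a large scaffold-like protein, fell, at 26.3, 6.88 and 10.2% in WT preMegE, against 62.1, 72.1 and 63.9% in WT HSC (adjusted p = 0.00126). The 51-nt exon of Myef2, an RNA-binding protein, fell, at 36.7, 32.6 and 28.1% in WT preMegE, against 68.4, 92.01 and 81.2% in WT HSC (adjusted p = 0.00973). For each of these 3 exons the groups did not overlap.

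The called exons of Abi1 and Bak1 were at 0 in all WT preMegE libraries. The 15-nt exon of Abi1 at chr2:22971027-22971041 was at 0% in each library of WT preMegE, against 49.1, 68.98 and 85% in WT HSC (adjusted p = 0.00457), whereas its alternative at chr2:22963214-22963228 was the one that rose in KO. The 20-nt exon of Bak1, a BCL2-family effector of apoptosis, was at 0% in each library of WT preMegE, against 33.4, 28.9 and 76.6% in WT HSC (adjusted p = 0.00332). These calls, like those of Commd6, Fryl and Myef2, were kept without each library. The Fryl change was -51.5 points from TPM and -32.1 from estimated counts, and edgeR on counts did not call the Abi1 exon (adjusted p = 0.0585).

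Calls of 4 other exons in the same step depended on single libraries. Pdp1 encodes a phosphatase of pyruvate dehydrogenase, and its 35-nt exon changed by 69.5 points, lost without WT HSC replicate 2 (0.105), WT HSC replicate 3 (0.102), WT preMegE replicate 1 (0.0726), WT preMegE replicate 2 (0.088) or WT preMegE replicate 3 (0.0947). Cdk5rap3, a partner of Ufl1, changed by 61.8 points, lost without WT HSC replicate 3 (0.102), WT preMegE replicate 1 (0.104) or WT preMegE replicate 2 (0.116). Mink1, a kinase close to Map4k4, changed by -59.9 points, lost without WT HSC replicate 1 (0.0724), WT HSC replicate 2 (0.0554), WT preMegE replicate 2 (0.0841) or WT preMegE replicate 3 (0.0568). Ap1ar, a regulator of the AP-1 adaptor, changed by -54.2 points, lost without WT HSC replicate 3 (0.055), WT preMegE replicate 2 (0.056) or WT preMegE replicate 3 (0.1), and by -5.33 points from estimated counts, under the limit of 10. The Gnas exon had the largest value (97.99 points), from 1 WT HSC library. Of the neural microexon genes, Ehbp1l1, Fnbp1 and Mef2d rose in WT preMegE, by 39.1, 34.3 and 10.01 points. Those of Dlg1, Macf1, Mark2 and Myo18a fell, with -25.1, -17.7, -27.2 and -25.3 points, as did those of Abi1 and Mink1. These 3 higher and 6 lower of 74 stand beside 4.76% higher and 6.64% lower of all short exons. From estimated counts Mef2d was higher by 3.798 points, which was not called, and Fnbp1 by 17.9 points. In WT preCFU-E against WT preMegE 68 exons were higher and 74 lower without overlap (9.81% and 10.7%), against 7.79% and 10.6% of all. There 1 exon was called, against 0.092% of all, 0.0368% higher and 0.0552% lower: the 20-nt exon of Rps24 fell to 6.75, 6.7 and 8.38% in WT preCFU-E, against 58.1, 51.7 and 61.2% in WT preMegE (adjusted p = 0.000211). This step was -49.8 points from TPM and -16.5 points from estimated counts.

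**Figure D5:**
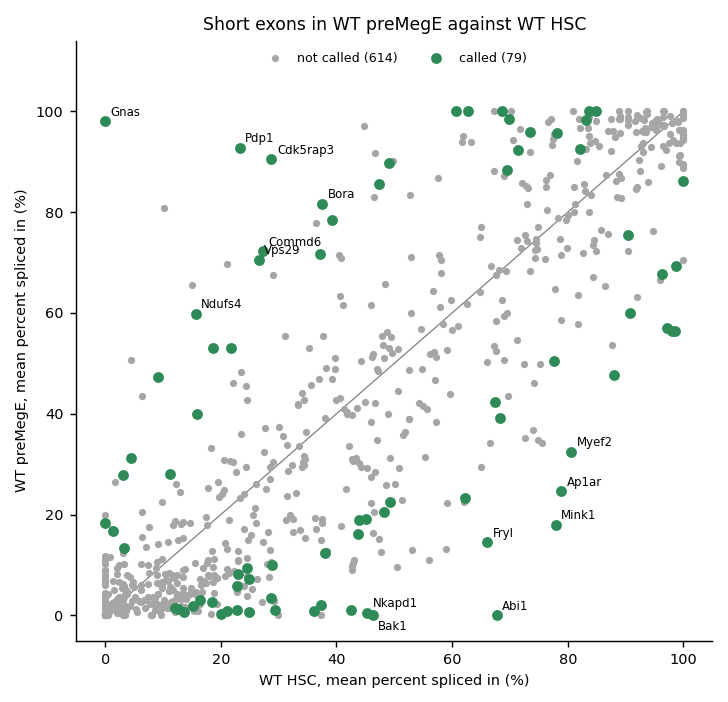
Mean PSI in percent in WT preMegE (vertical axis) against WT HSC (horizontal axis) for the 693 short exons, each a mean of up to 3 libraries. Green points are the 79 called exons, grey points the other 614, and the line marks equal inclusion. Abi1 and Bak1 lie at 0 in WT preMegE, and Commd6 and Pdp1 are among those far above the line.

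Few host genes were called at the level of the gene. Of the 595 host genes, edgeR called 5 higher and 6 lower in KO against WT HSC. These are 0.84% and 1.01%, against 0.385% and 0.459% of all 21565 genes. In preMegE 1 was higher and 1 lower (0.168% each), against 0.0371% and 0.0232%. In preCFU-E 2 were higher and 3 lower (0.336% and 0.504%), against 0.0788% and 0.0742%. The host shares were above those of all genes, but on few genes that include the deleted gene Ptbp1, so they are not read as a trait of host genes. Host genes were chosen with a minimum level, and the difference in shares was not tested. Ptbp1 was lower and Ptbp2 higher in all 3 populations, and in preMegE they were the only host genes called. Of the 26 genes with an exon called in the mean effect, Ptbp1 and Ptbp2 were the only ones called at the level of the gene. For Pdlim7 the log2 fold change of the gene was 0.95 ± 0.33 (SE) in preCFU-E and for Mars -0.52 ± 0.20 in preMegE, both not called (adjusted p = 0.866 and 0.912).

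Some features of the short exons were not used in their choice. Their length was a multiple of 3, which keeps the reading frame where an exon is coding, in 451 of 693 (65.1%), against 43.9% of longer cassette exons. This was not even over the set. It held for 58 of 63 exons of 3 to 15 nt, 103 of 126 of 16 to 27 nt and 129 of 193 of 28 to 39 nt. At 40 to 51 nt it held for 161 of 311, close to the 444 of 888 at 52 to 75 nt. They lay wholly in coding sequence in 509 cases (73.4%), against 58.9% of longer ones, with 68 in 5′ UTRs, 12 in 3′ UTRs, 51 partly coding and 53 in transcripts without coding sequence. Of the 24 that rose in KO, 19 (79.2%) have such a length, that of Gnas in a noncoding transcript among them, 22 lie in coding sequence and 12 are of 27 nt or less, with a median length of 27 nt beside 39 nt over all short exons. Median flanking introns were 1531 nt upstream and 1829 nt downstream over all short exons. In 81 genes there was more than 1 short exon, and 20 exons overlap another. These share transcripts and are not independent. Salmon divided the reads among annotated transcripts, and 382 of the exons (55.1%) involve a transcript whose annotated ends are incomplete.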

How the data were processed

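Total RNA of sorted bone marrow cells was converted to cDNA and libraries with NuGEN Ovation kits, per the labels' protocols, and 18 libraries were grouped by their genotype and cell type labels. The TPM values and the estimated counts were made by the authors with Salmon 0.12.0 on mm10 and GRCm38.p6, per the submitters' processing notes. The sources used here do not give the index, options or strand setting. Both were deposited per transcript and library, and 136176 of 136288 transcripts matched GENCODE M21.

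PSI was computed from the deposited TPM values, and the log2 odds of PSI, with 0.01 added to both parts, were fitted with limma 3.58.1 on 6 group means (R 4.3.3, 12 residual degrees of freedom). P-values were adjusted by Benjamini-Hochberg over all tested cassette exons. Calls required at least 10 points as well as an adjusted p below 0.05. Each change in points is a difference of mean PSI. Libraries with no TPM for an exon gave no value, for 7 short exons. Gene levels came from the deposited estimated counts, summed per gene, rounded and tested with edgeR 4.0.16 (quasi-likelihood, TMM). DESeq2 1.42.0 and edgeR on including and skipping counts were alternatives. The scripts were tested on simulated data.

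Libraries held 15956408 to 29226287 estimated counts. Replicates of a group differed by more than sampling noise in every pair. TPM gives no counting error for a PSI, so the spread between replicates was used, in which measurement error and biological differences cannot be told apart.

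The members and gene lists were chosen with earlier results of these data known. Named with values were, per comparison, up to 10 called exons with the largest changes and no overlap between groups (for the mean effect, in at least 2 populations), the PTB target exons, the neural microexon genes with a call, and the exons at each threshold. One of the exons at a threshold is not reported here. The other called exons were named after their values were seen. Intron motifs were not analysed here, for want of a genome sequence.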

Additional observations from a re-analysis of the deposited data

Results flagged for a closer look

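For 3 exons a difference of the KO effect between populations was called by limma, and each call depends on the processing. The 43-nt exon of Ctsa was at 0 in all KO HSC libraries, against 37.5, 41.7 and 23.98% in WT HSC, and at 32.8, 37.4 and 52.1% in KO preMegE, against 44.5, 44.8 and 38.6% in WT preMegE. Its effect in preMegE was 32.5 points above that in HSC (adjusted p = 0.000402), but 11.3 points from estimated counts, and it was not called with PSI fitted in percentage points (adjusted p = 0.1).

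The 24-nt exon of Gnas had an effect in preMegE 97.1 points below that in HSC, a difference of -97.1 (adjusted p = 0.000565). The value rests on 2 KO HSC libraries and 1 WT HSC library with a PSI, so it does not show that the effects differ. EdgeR on counts did not call it (adjusted p = 0.0522), and it is not tested when only exons with a PSI in every library are kept.

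The 45-nt exon of Araf was listed at 0 in all 6 HSC libraries and in the 3 KO preMegE libraries, against 18.4, 19.3 and 17.2% in WT preMegE. In preCFU-E it was at 19.5, 28.2 and 21.7% in KO, against 19.4, 29.4 and 18.6% in WT. Its effect in preMegE differed by -18.3 points from that in HSC (adjusted p = 0.000538), and its effect in preCFU-E by 19 points from that in preMegE (adjusted p = 0.00129). These calls were kept without each library, but from estimated counts the differences were -6.23 and 6.87 points, under the limit of 10. They were not called with PSI fitted in percentage points (adjusted p = 0.134 and 0.305) or by edgeR on counts (adjusted p = 1 and 0.187). An exact 0 can be an estimate of the quantification, which was not tested. Araf lies on the X chromosome, and the HSC and preMegE libraries differ in sex, whose part was not tested.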

How the results depend on the processing

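Of 52 named changes none reversed. Of these, 17 kept their call under all settings that keep the libraries, 35 in all leave-outs and 16 in both, and 174 of 1194 values lost it. Edge values and HSC limit the calls: PSI at exactly 0 or 100% depends on the offset, HSC libraries varied most, and exons of low total rest on few reads.

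Counts of called short exons moved by more than 1.5 times as follows. With edgeR on including and skipping counts there were 7 calls in HSC, 2 in preMegE, 7 in preCFU-E, 13 in the mean effect and 31 in WT preMegE against WT HSC. It called 1 exon for the difference of preMegE against HSC and 0 for that of preCFU-E against preMegE, where 12 short exons had an unadjusted p below 0.05 and limma called 1. An offset of 0.001 gave 4 calls in preMegE, 9 in preCFU-E and 3 for the difference of preCFU-E against preMegE. PSI in percentage points gave 30 in HSC and 2 in WT preCFU-E against WT preMegE. No minimum TPM gave 2 for the difference of preCFU-E against preMegE and 4 for WT preCFU-E against WT preMegE. A PSI of 5 to 95% gave 2 for that difference, as did protein-coding and nonsense-mediated decay transcripts alone, which gave 4 in preMegE. Changes of at least 20 points numbered 4 in preMegE, 13 in the mean effect and 0 for that difference. Fitted alone, HSC gave 1 and preCFU-E 23. Host genes called in HSC were 17 without a filter, 1 in HSC alone and 28 with DESeq2, and 15 in preCFU-E alone. The cause of these moves was not tested. Some settings remove exons or libraries, and a fit on a single population also takes the spread from that population alone.

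Leaving out 1 library gave 19 to 36 calls in HSC, 4 to 6 in preMegE, 7 to 11 in preCFU-E and 19 to 32 in the mean effect. It gave 3 to 13 for the difference of preMegE against HSC, 1 to 2 for that of preCFU-E against preMegE, 42 to 83 for WT preMegE against WT HSC and 1 to 3 for WT preCFU-E against WT preMegE. Host genes called ranged from 6 to 28 in HSC, 2 to 3 in preMegE and 3 to 5 in preCFU-E.

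The sample titles number the replicates and give no pairing. Deviations of same-numbered libraries correlated from -0.0541 to 0.132 in PSI and from -0.0381 to 0.242 in gene level. In no pair of groups were all 3 over 0.1. For WT preCFU-E and WT preMegE the gene-level values were 0.242, 0.076 and 0.181. Whether same-numbered libraries share a mouse or a sort cannot be told from these values. With the replicate number as a block the counts were 19 in HSC, 6 in preMegE, 12 in preCFU-E, 22 in the mean effect, 3 and 1 for the differences, 77 and 1 for the WT steps, and 13, 2 and 5 host genes in HSC, preMegE and preCFU-E. Clasp1 in HSC (adjusted p = 0.0762), Tmem184b in preMegE (0.0591), Mars (0.0617) and Atp8a1 (0.0753) in preCFU-E and Abi1 in the mean effect (0.0853) lost their limma call under the block. Alternatives added after seeing the data were the mean over the progenitors only, with 37 calls, and exons with a PSI in every library only, with 27 in the mean effect.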
